A study of Homo sapiens with 4 samples.

Results

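Aminoacyl-tRNA synthetases are the enzymes that load each amino acid onto its transfer RNA. The 35 genes described here were taken by gene name from the 18997 nuclear genes that have a coding transcript in the deposited tables. They comprise 16 genes for enzymes of the cytosol, 16 genes for enzymes of the mitochondrion, and GARS1, KARS1 and QARS1, which were kept apart. GARS1 and KARS1 each encode the glycyl or lysyl enzyme of both compartments, and QARS1 encodes the glutaminyl enzyme, which has no mitochondrial counterpart.

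RNA was sequenced from WI-38, an established human lung fibroblast line with a finite replicative life span. The 4 groups were senescent whole cells at population doubling level 60, young whole cells at level 21, senescent mitoplasts at level 60 and young mitoplasts at level 21, with 1 library in each. The cells carried no engineered allele in the labels, and all 4 groups came from the same line grown in the same medium. Mitoplasts are mitochondria that have lost their outer membrane; the labels describe swelling in hypotonic buffer and digestion with RNase A, an enzyme that degrades RNA not protected by a membrane. Every comparison therefore set 1 library against 1 library, no test between conditions was possible, and no difference below has a replicate check.

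The cell carries separate translation systems in the cytosol and in the mitochondrion, and each needs a full set of charged transfer RNAs. Nuclear genes encode both sets of synthetases; the mitochondrial enzymes are made in the cytosol and imported. Several cytosolic synthetases sit together in a multisynthetase complex held by scaffold proteins. The transcription factor ATF4, which is translated when the initiation factor eIF2 is phosphorylated during amino acid shortage, is known to switch on many genes of cytosolic synthetases through a DNA element recognised by C/EBP and ATF factors.

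The deposited unit is FPKM, a level per transcript length and per mapped fragment, so levels of different genes can be set side by side, and the read depth of the libraries is unknown. The 35 genes had 385 transcripts with an Ensembl identifier, of which 139 were coding and 53 of those were above 0 in at least 1 library. A gene's level is the sum of its coding transcripts unless stated otherwise. Assembled transcripts without a gene name held 76.2% of all FPKM in senescent whole cells, 53.7% in young whole cells, 97.3% in senescent mitoplasts and 92.7% in young mitoplasts. The senescent mitoplast library stood apart: among the 5559 coding genes that reached 5 FPKM in young whole cells, 41.3% were listed at 0 there, against 10.8% in young mitoplasts and 5.2% in senescent whole cells. Of the 35 synthetase genes, 20 reached that level, and of these 12 were listed at 0 in senescent mitoplasts, 1 in young mitoplasts and 1 in senescent whole cells. An exact 0 in such tables can be a failed estimate, so these genes are called listed at 0. All 13 mitochondrial mRNAs were higher in young mitoplasts than in young whole cells, with a median log2 ratio of 1.89. In senescent mitoplasts only MT-CYB, which encodes cytochrome b, was above 0 among the same 13. Senescent whole cells also listed most of them at 0, with only MT-ND1 at 13185 FPKM and MT-CYB at 14663 FPKM above it. Apart from that of MT-ND1, the zeros in senescent mitoplasts were thus shared by both senescent libraries and were not particular to the mitoplasts. ACTB, a cytosolic mRNA, stood at 272 FPKM in senescent mitoplasts, 2964 FPKM in senescent whole cells, 3176 FPKM in young mitoplasts and 4530 FPKM in young whole cells. GAPDH, another cytosolic mRNA, stood at 292 FPKM in senescent mitoplasts and 863 FPKM in senescent whole cells. In young cells GAPDH ran the other way from ACTB, at 1818 FPKM in mitoplasts and 953 FPKM in whole cells. Of 8 fibroblast markers, 8 were at 1 FPKM or more in senescent whole cells and 7 in each other library, with PDGFRB listed at 0 in both young libraries and VIM in senescent mitoplasts. The epithelial marker KRT19 was listed at 0 in both senescent libraries, against 5.21 FPKM in young whole cells and 8.30 FPKM in young mitoplasts, and no blood marker and none of the endothelial markers with a value reached 1 FPKM in any library. The fibroblast markers summed to 4260 FPKM in senescent whole cells, 7732 FPKM in young whole cells, 799.9 FPKM in senescent mitoplasts and 5607 FPKM in young mitoplasts, and the 5 epithelial markers to 0.58 FPKM in senescent whole cells, 5.35 FPKM in young whole cells, 0.065 FPKM in senescent mitoplasts and 10.2 FPKM in young mitoplasts. The part of either list in the results below was not tested. The state of the cells was read from MKI67, a proliferation gene, at 0.26 FPKM in senescent whole cells and 12.1 FPKM in young whole cells, and from CDKN1A, a cell cycle inhibitor, at 152 FPKM in senescent whole cells and 93.7 FPKM in young whole cells.

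The element bound by C/EBP and ATF factors is shown for its known part in switching on synthetase genes. Promoters from 250 bases before to 50 bases after the start, taken from RefSeq on build GRCh38.p14, were matched by symbol for 30 of the 35 genes, namely 13 cytosolic genes, 14 mitochondrial genes and the 3 kept apart. The letters TGATGNAA were searched on both strands. They occurred in 6 of 13 cytosolic promoters, 1 of 14 mitochondrial promoters and 1 of the 3 others, against 4.46% of the 27305 genes in the table. The form TGATGCAA occurred in the same 6 cytosolic promoters and in no other promoter of the list, against 1.08% of all genes. The matches are printed 5′ to 3′ on the strand that holds the element, with the element in capitals.
AARS1, chr16:70289675-70289704, plus strand: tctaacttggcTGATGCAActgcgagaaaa
CARS1, chr11:3057407-3057436, plus strand: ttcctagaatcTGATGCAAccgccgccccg
IARS1, chr9:92293692-92293721, plus strand: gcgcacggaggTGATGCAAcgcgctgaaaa
MARS1, chr12:57488053-57488082, minus strand: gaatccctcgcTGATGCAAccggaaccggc
NARS1, chr18:57621804-57621833, minus strand: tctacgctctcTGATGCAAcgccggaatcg
TARS1, chr5:33440956-33440985, minus strand: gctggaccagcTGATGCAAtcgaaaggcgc
GARS1, chr7:30594834-30594863, minus strand: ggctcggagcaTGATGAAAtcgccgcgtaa
YARS2, chr12:32756076-32756105, minus strand: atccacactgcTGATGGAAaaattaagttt
The element began within 15 bases of the annotated start in CARS1, IARS1, MARS1, NARS1 and TARS1, 187 bases before it in AARS1, 33 bases before it in GARS1 and 197 bases before it in YARS2. A match of letters is a description and not a shown binding site. The 5 genes without a promoter in the table were AARS2, LARS1, VARS1, VARS2 and YARS1.

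HARS1 and HARS2, the cytosolic and mitochondrial histidyl-tRNA synthetase genes, lie head to head, and the stretch between their starts is shown because both genes share it as upstream sequence. It is 84 bases long at chr5:140691371-140691454 on GRCh38.p14, printed on the plus strand, along which HARS2 is read. Capitals mark CCGGAA or its reverse complement TTCCGG, the core of the element bound by ETS factors.
HARS1-HARS2: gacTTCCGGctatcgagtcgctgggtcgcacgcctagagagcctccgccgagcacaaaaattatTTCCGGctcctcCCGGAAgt
The stretch held 3 such matches. Of 35116 stretches of the same length just before an annotated start, 7.88% held at least 1 and 0.191% held at least 3. The deposited levels of the pair differed. HARS1 was above 0 in all 4 libraries, and HARS2 was above 0 in senescent mitoplasts alone, at 2.76 FPKM. Assembled transcripts where the locus joins HARS2 with other genes summed to 26.2 FPKM in young whole cells. The pair are also close relatives in coding sequence, and how reads common to both were assigned is not known.

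In each of the 4 libraries the cytosolic genes had a higher median level than the mitochondrial genes. The median of the 16 cytosolic genes was 12.4 FPKM in senescent whole cells, 19.8 FPKM in young whole cells, 0.50 FPKM in senescent mitoplasts and 23.0 FPKM in young mitoplasts. The median of the 16 mitochondrial genes was 0.64 FPKM in senescent whole cells, 0.30 FPKM in young whole cells and 0 FPKM in both mitoplast libraries. For scale, coding genes at 1 FPKM or more had medians of 7.84 FPKM in senescent whole cells, 8.57 FPKM in young whole cells, 6.52 FPKM in senescent mitoplasts and 6.21 FPKM in young mitoplasts. Zeros were also spread unevenly. In senescent whole cells 1 cytosolic and 7 mitochondrial genes were listed at 0, against no cytosolic and 8 mitochondrial genes in young whole cells. In senescent mitoplasts 8 cytosolic and 13 mitochondrial genes were listed at 0, against 1 cytosolic and 9 mitochondrial genes in young mitoplasts.

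Taken by amino acid, the 16 mitochondrial enzymes can each be set against the cytosolic enzyme for the same amino acid, with EPRS1 serving for both glutamate and proline. The mitochondrial gene was the lower one for 15 of 16 amino acids in young whole cells and for all 16 in young mitoplasts. In senescent whole cells it was the lower one for 12, the higher one for 3 and equal for 1. In senescent mitoplasts it was lower for 7, higher for 2 and equal, with both listed at 0, for 7. Phenylalanine was the exception in young whole cells by coding transcripts. Over all Ensembl transcripts IARS2 for isoleucine also stood above IARS1 there, at 27.3 FPKM against 20.1 FPKM. Over coding transcripts of 1000 nucleotides or more TARS2 for threonine did so, at 1.96 FPKM with TARS1 listed at 0. FARS2, the mitochondrial phenylalanyl enzyme, stood at 49.8 FPKM in senescent whole cells and 79.2 FPKM in young whole cells, above FARSA, the alpha subunit of the cytosolic enzyme, at 37.8 FPKM in senescent whole cells and 66.4 FPKM in young whole cells. Among mitochondrial genes FARS2 had the highest level in both whole-cell libraries. The remaining higher mitochondrial genes in senescent whole cells were LARS2 for leucine, at 7.14 FPKM against 6.59 FPKM for LARS1, and RARS2 for arginine, at 17.3 FPKM against 9.88 FPKM for RARS1. The order for arginine turned over all Ensembl transcripts, with RARS1 at 20.8 FPKM. The order for leucine leaves out Ensembl transcripts of the LARS1 locus that matched no symbol, at 4.82 FPKM.

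**Figure D1:**
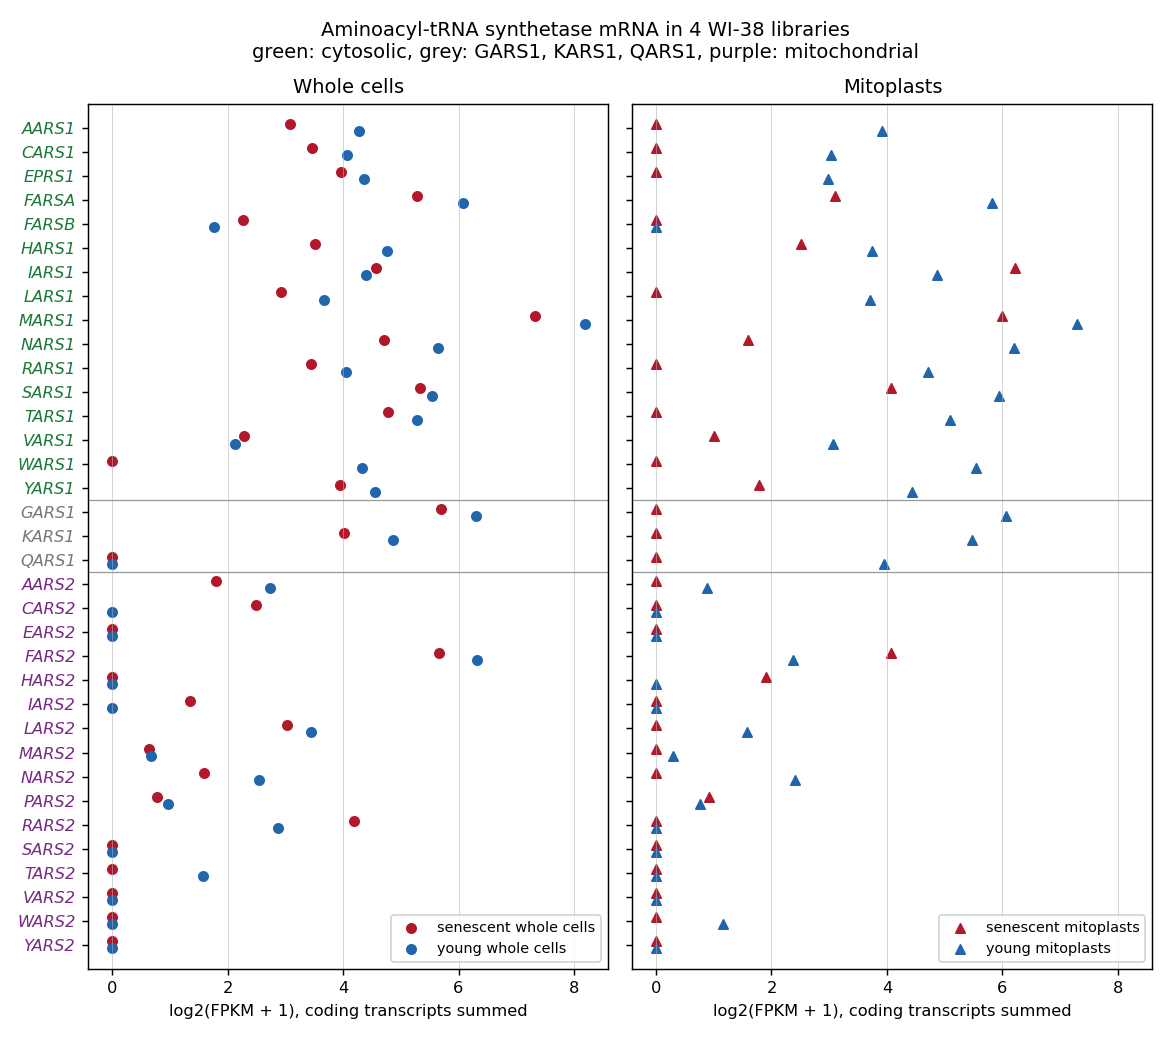
Level of each of the 35 synthetase genes, as log2(FPKM + 1) of summed coding transcripts, in whole cells (left, circles) and mitoplasts (right, triangles), with senescent libraries in red and young libraries in blue and 1 library per symbol. Most cytosolic genes (green names) sit to the right of the mitochondrial genes (purple names) in whole cells, and 24 of the 35 genes sit at 0 in senescent mitoplasts.

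Senescent whole cells were compared with young whole cells on log2((senescent + 1)/(young + 1)) of FPKM, a scale that understates the change of low genes. A gene was compared where the mean of the 2 libraries was 1 FPKM or more and was counted as higher or lower at a log2 ratio of 1. All 16 cytosolic genes were compared; 13 had ratios below 0, their median was −0.61, 3 were lower by the threshold and none was higher. Over the 8978 nuclear coding genes compared, the median was −0.17 and 5127 had ratios below 0. Of the 8978, 21.6% were lower by the threshold and 14.4% were higher, or 36% in all, so the share of 3 in 16 was near that of all genes. Of all 35 synthetase genes, 24 were compared, and 5 of these passed the threshold in either direction. In RNA from whole cultures, fewer cells that make a transcript and less of it per cell cannot be told apart. With the coding FPKM of each library scaled to the same sum, the median of all genes compared was 0.07 and the cytosolic median was −0.35. Of the 16 cytosolic genes, 12 were then below 0 and 1 was lower by the threshold. How many of all genes lay below 0 at equal sums was not counted. The split of all genes also turned, to 1510 higher and 1361 lower, against 1296 higher and 1937 lower as deposited.

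The 3 cytosolic genes past the threshold were AARS1, HARS1 and WARS1. AARS1, the alanyl enzyme, stood at 7.49 FPKM in senescent whole cells and 18.5 FPKM in young whole cells, a log2 ratio of −1.20. HARS1, the histidyl enzyme, stood at 10.4 FPKM in senescent whole cells and 26.2 FPKM in young whole cells, a log2 ratio of −1.26. Both were lower in senescent whole cells, and under equal sums their ratios of −0.93 and −0.99 did not reach the threshold. WARS1, the tryptophanyl enzyme and an interferon-inducible gene, had 0 FPKM listed in senescent whole cells and stood at 19.1 FPKM in young whole cells. Assembled transcripts of the WARS1 locus were present in both, at 21.5 FPKM in senescent whole cells and 34.1 FPKM in young whole cells, so the 0 concerns the annotated transcripts; with the assembled ones added the ratio was −1.26.

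The genes of the multisynthetase complex among the 35 are EPRS1, IARS1, KARS1, LARS1, MARS1, QARS1 and RARS1. Of the 6 compared between senescent and young whole cells none passed the threshold, which 36% of all genes passed. Their median log2 ratio was −0.68, against −0.62 for the 11 cytosolic genes outside the complex. MARS1, the methionyl enzyme, had the highest level of the 35 genes, at 159.9 FPKM in senescent whole cells and 290.5 FPKM in young whole cells, a ratio of −0.86. EPRS1, which joins glutamyl and prolyl activities in one chain, stood at 14.6 FPKM in senescent whole cells and 19.6 FPKM in young whole cells. LARS1, the leucyl enzyme and a known leucine sensor, stood at 6.59 FPKM in senescent whole cells and 11.8 FPKM in young whole cells, a ratio of −0.75. These genes were each lower in senescent whole cells by less than the threshold. RARS1, the arginyl enzyme, stood at 9.88 FPKM in senescent whole cells and 15.5 FPKM in young whole cells. KARS1, the lysyl enzyme of both compartments, stood at 15.3 FPKM in senescent whole cells and 28.2 FPKM in young whole cells, a ratio of −0.84. IARS1, the isoleucyl enzyme, went the other way, at 22.8 FPKM in senescent whole cells and 20.1 FPKM in young whole cells, a ratio of 0.18. With assembled transcripts added the ratio of EPRS1 became 0.18 and that of IARS1 −0.24, so neither direction held. QARS1 had its coding transcripts listed at 0 in both whole-cell libraries. Its noncoding transcripts summed to 57.0 FPKM in senescent whole cells and 90.04 FPKM in young whole cells. Noncoding here means every Ensembl class other than protein coding, including transcripts annotated for nonsense-mediated decay, such as QARS-205.

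Outside the complex, NARS1, the asparaginyl enzyme, stood at 25.3 FPKM in senescent whole cells and 49.0 FPKM in young whole cells, a ratio of −0.93. TARS1, the threonyl enzyme, stood at 26.6 FPKM in senescent whole cells and 38.1 FPKM in young whole cells. CARS1, the cysteinyl enzyme, stood at 10.1 FPKM in senescent whole cells and 15.8 FPKM in young whole cells. All of these were lower in senescent whole cells. YARS1, the tyrosyl enzyme, stood at 14.4 FPKM in senescent whole cells and 22.6 FPKM in young whole cells. SARS1, the seryl enzyme, was close in both, at 39.5 FPKM in senescent whole cells and 45.5 FPKM in young whole cells, and its ratio changed sign under equal sums, to 0.06. VARS1, the valyl enzyme, stood at 3.86 FPKM in senescent whole cells and 3.40 FPKM in young whole cells; the VARS1 locus also held assembled transcripts at 5.74 FPKM in senescent whole cells and 23.5 FPKM in young whole cells, with which the ratio became −1.40. GARS1, the glycyl enzyme of both compartments, stood at 50.9 FPKM in senescent whole cells and 77.7 FPKM in young whole cells, a ratio of −0.60. The GARS1 locus also held assembled transcripts at 40.7 FPKM in senescent whole cells and at 0 FPKM in young whole cells, with which the ratio became 0.24, so its direction depends on them.

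The cytosolic phenylalanyl enzyme is built from alpha subunits encoded by FARSA and beta subunits encoded by FARSB. FARSA was lower in senescent whole cells, with a log2 ratio of −0.80. FARSB stood at 3.83 FPKM in senescent whole cells and 2.38 FPKM in young whole cells, a ratio of 0.52 on low levels that became −0.072 with assembled transcripts. The FARSB locus also held Ensembl transcripts that matched no symbol, at 11.5 FPKM in senescent whole cells and 10.2 FPKM in young whole cells. Which subunit gene was the higher one depended on the transcripts summed, since most of the FARSA level lay in a transcript of 514 nucleotides. Over coding transcripts of 1000 nucleotides or more, FARSA stood at 7.84 FPKM in senescent whole cells and 15.5 FPKM in young whole cells. FARSB with its unmatched transcripts stood at 15.3 FPKM in senescent whole cells and 12.6 FPKM in young whole cells.

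Of the 16 mitochondrial genes, 6 were high enough to compare in whole cells, with a median log2 ratio of −0.54. Those 6 are the genes that passed a minimum and do not stand for the other 10. None of the 6 was lower by the threshold, against 21.6% of all genes. RARS2, the arginyl enzyme, was higher, at 17.3 FPKM in senescent whole cells and 6.31 FPKM in young whole cells, a ratio of 1.32. Neither whole-cell library gave the Ensembl identifier of its transcript, which was taken from another library. Counted only where the library itself gives the identifier, the ratio of RARS2 was 0. CARS2, the cysteinyl enzyme, stood at 4.65 FPKM in senescent whole cells and was listed at 0 in young whole cells. Assembled transcripts of the CARS2 locus ran the other way, at 11.2 FPKM in senescent whole cells and 33.4 FPKM in young whole cells, and with them the ratio was −1.03. The other 4 compared were lower by less than the threshold. AARS2, the alanyl enzyme, stood at 2.48 FPKM in senescent whole cells and 5.63 FPKM in young whole cells, a ratio of −0.93. NARS2, the asparaginyl enzyme, stood at 2.03 FPKM in senescent whole cells and 4.85 FPKM in young whole cells, a ratio of −0.95. FARS2 had a ratio of −0.66 and LARS2, the leucyl enzyme, one of −0.42.

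The 10 mitochondrial genes under the minimum were mostly listed at 0 in whole cells. IARS2, the isoleucyl enzyme, stood at 1.55 FPKM in senescent whole cells and was listed at 0 in young whole cells. TARS2, the threonyl enzyme, had 0 FPKM listed in senescent whole cells and stood at 1.96 FPKM in young whole cells. MARS2, the methionyl enzyme, stood at 0.56 FPKM in senescent whole cells and 0.59 FPKM in young whole cells. These levels were too low to compare. PARS2, the prolyl enzyme, stood at 0.71 FPKM in senescent whole cells and 0.97 FPKM in young whole cells. EARS2, HARS2, SARS2, VARS2, WARS2 and YARS2, the glutamyl, histidyl, seryl, valyl, tryptophanyl and tyrosyl enzymes, were listed at 0 in both whole-cell libraries. EARS2 also supplies the mitochondrial glutaminyl-tRNA, by charging it with glutamate that the GatCAB amidotransferase then converts.

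**Figure D2:**
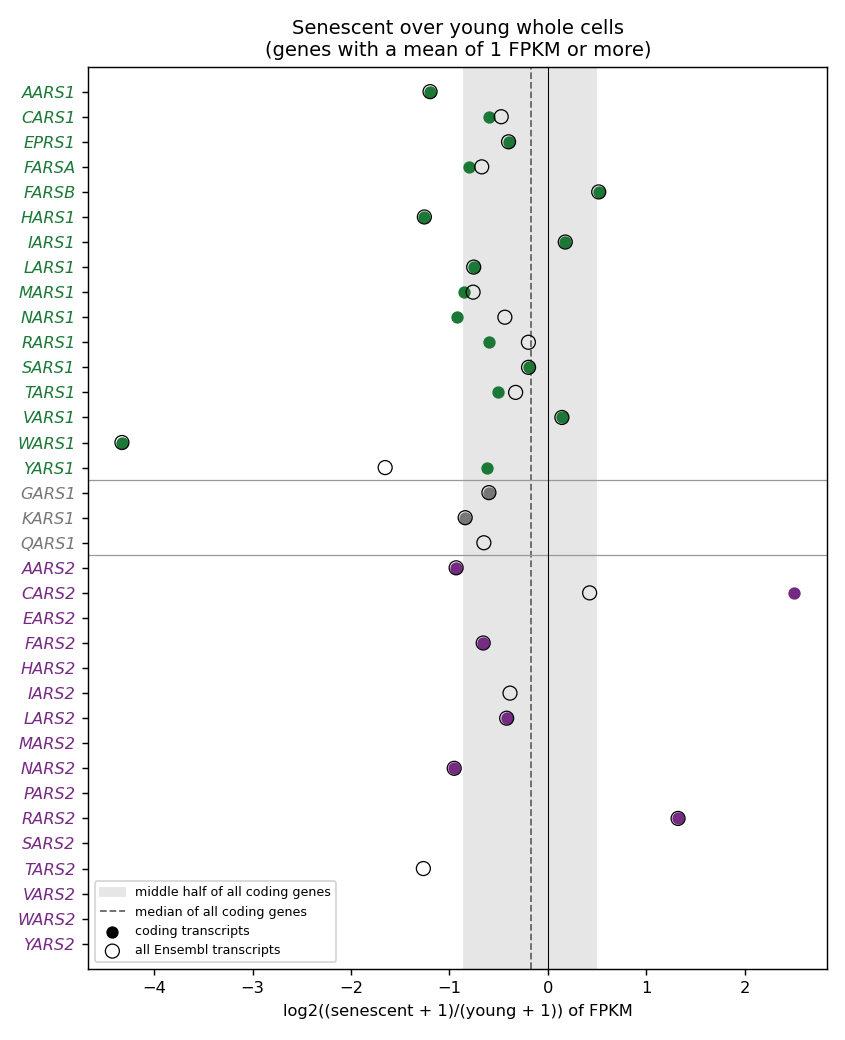
Log2((senescent + 1)/(young + 1)) of FPKM in whole cells for each synthetase gene with a mean of 1 FPKM or more, from coding transcripts (filled points) and from all its Ensembl transcripts (rings); the grey band spans the quartiles of all nuclear coding genes compared, −0.85 to 0.49, and the dashed line is their median of −0.17. Most cytosolic points (green) lie left of the dashed line, with WARS1, listed at 0 in senescent whole cells, far to the left and CARS2, listed at 0 in young whole cells, far to the right.

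Mitoplast and whole-cell libraries were compared within each state. In young cells the 16 cytosolic genes had a median log2 ratio of mitoplasts over whole cells of −0.16, against −0.39 over the 9161 genes compared; 1 was higher by the threshold and 4 were lower, where 17% of all genes were higher, 35.6% were lower and 52.6% passed in either direction. The 5 mitochondrial genes compared had a median of −1.87, and 4 of them were lower. The median FPKM ratio of the cytosolic genes was thus near 0, although single genes differed. FPKM is relative to each library's own fragments, so the amount of this mRNA in the RNase-treated young mitoplasts is not known. The mitochondrial genes compared were mostly lower there, but AARS2, LARS2 and RARS2 passed the minimum only through their whole-cell level. WARS2, above 0 in young mitoplasts alone, did not pass it. With no minimum the mitochondrial median was −0.075, so no contrast between the sets is drawn. Under equal sums the all-gene median was −0.08, and 10 of the 16 cytosolic genes were above 0, against 7 as deposited. Of all 9161 genes, 3612 were above 0 as deposited, and their number at equal sums was not counted.

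WARS1 was the cytosolic gene higher by the threshold in young mitoplasts than in young whole cells, and not with every set of transcripts. WARS1 stood at 45.6 FPKM in young mitoplasts and 19.1 FPKM in young whole cells, a log2 ratio of 1.22, which was −0.22 with assembled transcripts added. A further 5 cytosolic genes named here, and KARS1 among the genes kept apart, had ratios above 0 that did not reach the threshold. NARS1 stood at 72.2 FPKM in young mitoplasts and 49.0 FPKM in young whole cells, a ratio of 0.55, which was −3.45 over coding transcripts of 1000 nucleotides or more. RARS1 stood at 25.2 FPKM in young mitoplasts and 15.5 FPKM in young whole cells, a ratio of 0.67. VARS1 stood at 7.42 FPKM in young mitoplasts and 3.40 FPKM in young whole cells, a ratio of 0.94, which was −0.86 with assembled transcripts. The sign of these ratios thus rests on the transcripts summed for NARS1 and VARS1. KARS1 stood at 43.3 FPKM in young mitoplasts and 28.2 FPKM in young whole cells, a ratio of 0.60. SARS1 stood at 60.1 FPKM in young mitoplasts and 45.5 FPKM in young whole cells, a ratio of 0.39 that was −0.0046 with assembled transcripts. IARS1 stood at 28.1 FPKM in young mitoplasts and 20.1 FPKM in young whole cells, a ratio of 0.46.

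Others were near their whole-cell level in young mitoplasts. GARS1 stood at 66.1 FPKM in young mitoplasts and 77.7 FPKM in young whole cells, a ratio of −0.23. FARSA stood at 55.5 FPKM in young mitoplasts and 66.4 FPKM in young whole cells, a ratio of −0.26. AARS1 stood at 14.1 FPKM in young mitoplasts and 18.5 FPKM in young whole cells, a ratio of −0.37. LARS1, TARS1 and YARS1 had ratios between −0.19 and 0.04. AARS1 was at 0.89 over all its Ensembl transcripts and TARS1 at 2.50 over long coding transcripts, so neither was near its whole-cell level under every choice. The genes lower by the threshold were CARS1 with a ratio of −1.05, EPRS1 with −1.38, HARS1 with −1.02, and FARSB, which was listed at 0 in young mitoplasts although unmatched Ensembl transcripts of its locus stood at 25.4 FPKM there. MARS1 was lower by less, at 155.6 FPKM in young mitoplasts and 290.5 FPKM in young whole cells. QARS1 had a coding transcript at 14.4 FPKM in young mitoplasts and none above 0 in young whole cells, but over all its annotated transcripts it stood lower, at 49.7 FPKM in young mitoplasts and 90.04 FPKM in young whole cells.

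Among mitochondrial genes, FARS2 differed most between the young libraries, at 4.19 FPKM in young mitoplasts and 79.2 FPKM in young whole cells, a log2 ratio of −3.95. AARS2 stood at 0.85 FPKM in young mitoplasts and 5.63 FPKM in young whole cells, a ratio of −1.85. LARS2 stood at 1.99 FPKM in young mitoplasts and 9.89 FPKM in young whole cells, a ratio of −1.87. All of these were lower in the mitoplasts, as was RARS2, which was listed at 0 there. NARS2 was nearly level, at 4.28 FPKM in young mitoplasts and 4.85 FPKM in young whole cells. WARS2 was above 0 in young mitoplasts alone, at 1.23 FPKM.

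In senescent cells the mitoplast library was lower than whole cells for most genes of the genome. The median log2 ratio of mitoplasts over whole cells was −1.99 over 8275 genes, with 69.6% lower by the threshold, 12.9% higher and 82.6% past it in either direction. The 15 cytosolic synthetase genes compared had a median of −2.27, with 13 lower and 1 higher, and 7 of them were listed at 0 in the mitoplasts, so that their ratios depend on the pseudocount. The 7 mitochondrial genes compared had a median of −1.80, with 6 lower and 1 higher, and 5 were listed at 0 in the mitoplasts. Both medians lay near that of all genes. Relative to the median gene, the cytosolic median was −0.29 and the mitochondrial median was 0.19.

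The cytosolic genes still above 0 in senescent mitoplasts were FARSA, HARS1, IARS1, MARS1, NARS1, SARS1, VARS1 and YARS1. MARS1 stood at 62.3 FPKM in senescent mitoplasts and 159.9 FPKM in senescent whole cells, a ratio of −1.35. SARS1 stood at 15.8 FPKM in senescent mitoplasts and 39.5 FPKM in senescent whole cells, a ratio of −1.27. HARS1 stood at 4.73 FPKM in senescent mitoplasts and 10.4 FPKM in senescent whole cells, a ratio of −0.99. All were lower in the mitoplasts, as were NARS1 with a ratio of −3.12, FARSA with −2.18, YARS1 with −2.16 and VARS1 with −1.28. IARS1 was the exception, at 73.6 FPKM in senescent mitoplasts and 22.8 FPKM in senescent whole cells, a ratio of 1.65. Its excess lay in a coding transcript of 414 nucleotides, IARS-204, at 65.4 FPKM; over coding transcripts of 1000 nucleotides or more, IARS1 stood at 8.25 FPKM in senescent mitoplasts and 22.8 FPKM in senescent whole cells.

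GARS1 and KARS1, the genes whose protein works in both compartments, had their coding transcripts listed at 0 in senescent mitoplasts, against 50.9 FPKM for GARS1 and 15.3 FPKM for KARS1 in senescent whole cells. GARS1 transcripts of the retained-intron class stood at 44.3 FPKM in senescent mitoplasts, so the 0 again concerns the coding transcripts. Of the mitochondrial genes, FARS2, HARS2 and PARS2 were above 0 in senescent mitoplasts. FARS2 stood at 15.8 FPKM in senescent mitoplasts and 49.8 FPKM in senescent whole cells, a ratio of −1.60. PARS2 was level, at 0.89 FPKM in senescent mitoplasts and 0.71 FPKM in senescent whole cells.

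**Figure D3:**
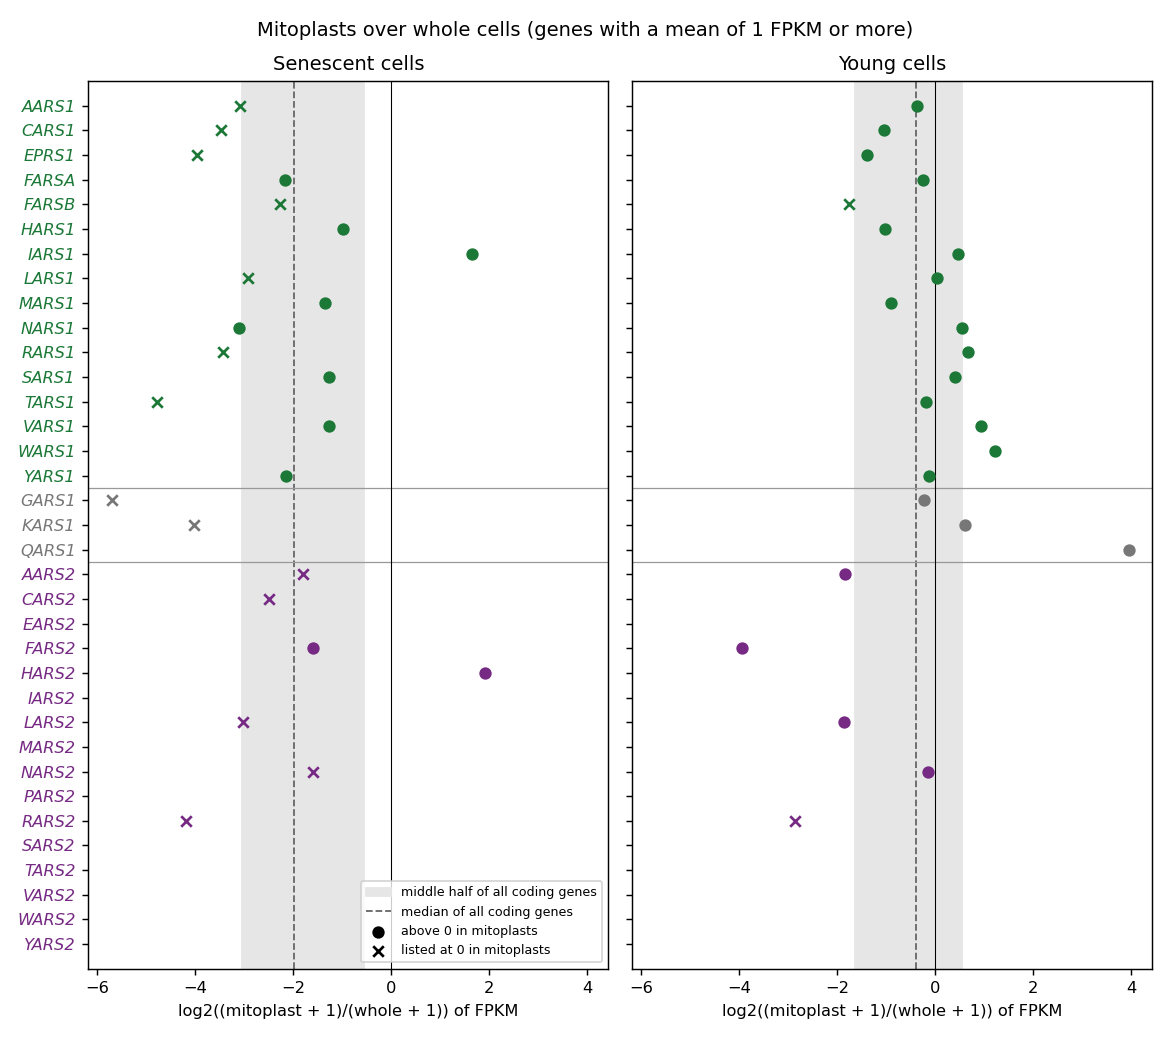
Log2((mitoplast + 1)/(whole + 1)) of FPKM for each synthetase gene with a mean of 1 FPKM or more, in senescent cells (left) and young cells (right); circles are genes above 0 in the mitoplasts, crosses are genes listed at 0 there, the grey band spans the quartiles of all nuclear coding genes compared and the dashed line is their median. The dashed line lies at −1.99 in senescent cells and −0.39 in young cells, and the cytosolic genes (green) lie on both sides of it in each panel.

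Senescent mitoplasts were also compared with young mitoplasts. This comparison shares its libraries with those above and adds no new measurement. Over the 7937 genes compared the median log2 ratio was −1.77, with 63.5% lower by the threshold, 15.8% higher and 79.2% past it in either direction. Of the 15 cytosolic synthetase genes compared, 14 were lower and 1, IARS1, was higher, with a median of −2.98; 7 of them were listed at 0 in senescent mitoplasts. With the median of all genes set to 0, the cytosolic median was −1.21, with 8 lower and 1 higher by the threshold, where 25.6% of all genes were lower and 33.6% were higher. With 0.1 FPKM in place of 1 FPKM as the pseudocount it was −5.08.

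NARS1 stood at 2.03 FPKM in senescent mitoplasts and 72.2 FPKM in young mitoplasts, a ratio of −4.59. FARSA stood at 7.56 FPKM in senescent mitoplasts and 55.5 FPKM in young mitoplasts, a ratio of −2.72. YARS1 stood at 2.44 FPKM in senescent mitoplasts and 20.7 FPKM in young mitoplasts, a ratio of −2.66. These ratios lay below the all-gene median. MARS1 with −1.31 and HARS1 with −1.23 lay above it, and SARS1 with −1.86 and VARS1 with −2.07 lay just below. The genes listed at 0 in senescent mitoplasts but not in young mitoplasts were AARS1, CARS1, EPRS1, LARS1, RARS1, TARS1 and WARS1, at young mitoplast levels between 6.89 FPKM for EPRS1 and 45.6 FPKM for WARS1. GARS1, KARS1 and QARS1 were listed at 0 in senescent mitoplasts as well, against 66.1 FPKM for GARS1, 43.3 FPKM for KARS1 and 14.4 FPKM for QARS1 in young mitoplasts.

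The 3 mitochondrial genes compared between mitoplasts differed in direction. FARS2 was higher, at 15.8 FPKM in senescent mitoplasts and 4.19 FPKM in young mitoplasts, a ratio of 1.69. Of its level in senescent mitoplasts, 11.7 FPKM belonged to a transcript of 562 nucleotides, FARS2-204; the main transcript, FARS2-201, stood at 4.08 FPKM in senescent mitoplasts and 4.19 FPKM in young mitoplasts. HARS2 stood at 2.76 FPKM in senescent mitoplasts and was listed at 0 in young mitoplasts. NARS2 was listed at 0 in senescent mitoplasts and stood at 4.28 FPKM in young mitoplasts.

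Which transcripts carried a gene's FPKM differed between genes and libraries. Summed over the 16 cytosolic genes and over all annotated transcripts, coding transcripts under 1000 nucleotides held 47.6% of the FPKM in senescent whole cells, 52.2% in young whole cells, 47.8% in senescent mitoplasts and 39.7% in young mitoplasts. A single MARS1 transcript, MARS-215, carried much of this. Without it the share was 24.2% in senescent whole cells, 25.6% in young whole cells, 33.1% in senescent mitoplasts and 26% in young mitoplasts. With MARS-215 counted, coding transcripts of 1000 nucleotides or more held 32.8% in senescent whole cells, 33.1% in young whole cells, 12.1% in senescent mitoplasts and 37.5% in young mitoplasts. Annotated noncoding transcripts held the rest, with the largest share of 40.1% in senescent mitoplasts, against 22.8% in young mitoplasts. Among mitochondrial genes the noncoding share was 86.8% in senescent mitoplasts and 75.3% in young mitoplasts, against 21.6% in senescent whole cells and 25.6% in young whole cells. The value in senescent mitoplasts rested on CARS2-204, which held 121 of the 147 FPKM; without it the noncoding share there was 24%, below that in young mitoplasts.

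The high level of MARS1 rested on MARS-215, a coding transcript of 294 nucleotides, which stood at 151 FPKM in senescent whole cells, 279 FPKM in young whole cells, 62.3 FPKM in senescent mitoplasts and 134 FPKM in young mitoplasts. The full-length MARS-201 of 2905 nucleotides stood at 9.05 FPKM in senescent whole cells, 11.8 FPKM in young whole cells and 4.09 FPKM in young mitoplasts, and was listed at 0 in senescent mitoplasts. By long transcripts alone MARS1 was thus not the highest member. FARSA, NARS1 and TARS1 rested on short coding transcripts in the same way. NARS-212 of 584 nucleotides stood at 25.3 FPKM in senescent whole cells, 39.1 FPKM in young whole cells and 72.2 FPKM in young mitoplasts, and was listed at 0 in senescent mitoplasts, where the long NARS-201 was at 2.03 FPKM. TARS-214 of 466 nucleotides was the source of all coding FPKM of TARS1 in both whole-cell libraries. FARSA-205 of 514 nucleotides held 29.9 FPKM in senescent whole cells and 50.9 FPKM in young whole cells.

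For other genes a noncoding transcript led. IARS2 was carried by IARS2-204, a processed transcript of 447 nucleotides, at 19.1 FPKM in senescent whole cells, 27.3 FPKM in young whole cells and 12.6 FPKM in young mitoplasts. CARS2-204, a processed transcript of 218 nucleotides, stood at 121 FPKM in senescent mitoplasts and was listed at 0 in the other libraries. WARS-239, of 471 nucleotides, stood at 77.7 FPKM in young mitoplasts alone. YARS2 was listed at 0 as a coding gene throughout, yet its noncoding transcripts reached 16.5 FPKM in young mitoplasts. By contrast, the long coding transcripts of GARS1, KARS1, SARS1, HARS1 and LARS1 held all of the annotated FPKM of these genes in both whole-cell libraries.

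**Figure D4:**
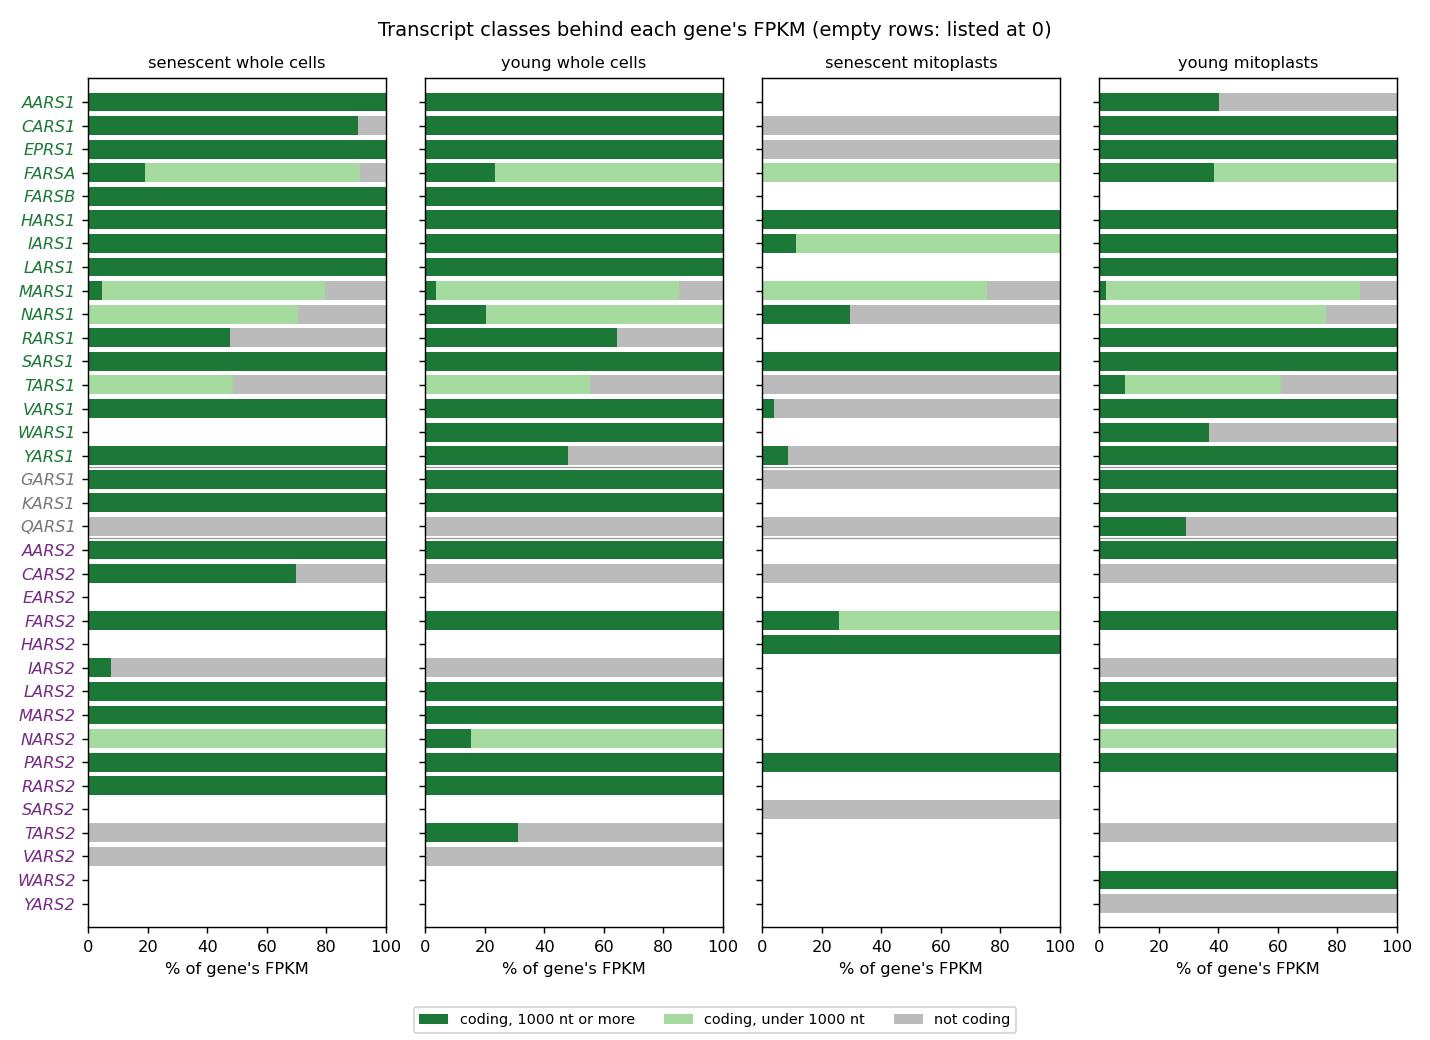
Share of each gene's annotated FPKM, in percent, that lay in coding transcripts of 1000 nucleotides or more (dark green), in shorter coding transcripts (light green) and in noncoding transcripts (grey), with 1 panel per library. Noncoding means every other annotated class, including nonsense-mediated decay. Long coding transcripts lead 19 of the 35 genes in each whole-cell library; in senescent mitoplasts 17 of the 35 genes have no bar because all their annotated transcripts were listed at 0, and 10 are led by noncoding transcripts.

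Genes around the synthetases were taken as lists, and were counted in senescent against young whole cells by the same threshold. Of the 3 scaffold genes of the multisynthetase complex, AIMP1 stood at 8.14 FPKM in senescent whole cells and 4.32 FPKM in young whole cells, AIMP2 had 0 FPKM listed in senescent whole cells and stood at 8.94 FPKM in young whole cells, and EEF1E1 was listed at 0 in both. Of 20 genes for mitochondrial tRNA maturation and charging, 14 were compared, with a median of −0.28. None was higher and 2 were lower, where 14.4% of all genes were higher and 21.6% were lower. The 2 were GATC, a subunit of the amidotransferase, listed at 0 in senescent whole cells and at 4.06 FPKM in young whole cells, and MTFMT, which formylates the initiator methionyl-tRNA, at 0.41 FPKM in senescent whole cells and 2.97 FPKM in young whole cells.

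Of 30 genes of the amino acid response, which ATF4 is known to drive, 23 were compared, 10 were lower by the threshold and 1 was higher, with a median of −0.74, where 21.6% of all genes were lower and 14.4% were higher. EIF4EBP1, a repressor of cap-dependent translation, stood at 0.92 FPKM in senescent whole cells and 32.7 FPKM in young whole cells, a log2 ratio of −4.13. PHGDH, the first enzyme of serine synthesis, stood at 2.77 FPKM in senescent whole cells and 32.6 FPKM in young whole cells, a ratio of −3.16. CEBPB, a partner of ATF4, stood at 6.58 FPKM in senescent whole cells and 33.4 FPKM in young whole cells, a ratio of −2.18. The gene higher by the threshold, named after its values were seen, was SLC38A2, a transporter of neutral amino acids. It stood at 109 FPKM in senescent whole cells and 39.9 FPKM in young whole cells, a ratio of 1.42. Over all its Ensembl transcripts SLC38A2 did not reach the threshold, at 303 FPKM in senescent whole cells and 195 FPKM in young whole cells. DDIT4, an inhibitor of the mTOR kinase, was lower too, at 0.62 FPKM in senescent whole cells and 5.16 FPKM in young whole cells. ATF4 itself was listed at 0 in all 4 libraries, as was its target DDIT3, so neither could be compared. Within the synthetases, the 6 cytosolic genes with the promoter element had a median of −0.73 and the 7 without it −0.60. Over all coding genes with a promoter in the table, the median was −0.11 for the 209 with the element and −0.17 for the 7146 without it.

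The 8 genes for the alpha subunit of eIF2, its kinases with their activator GCN1 and its phosphatase subunits had a median ratio of 0.37. Of these, 1 was higher and none was lower, where 14.4% of all genes were higher and 21.6% were lower. The higher one was EIF2S1, the eIF2 alpha subunit that the kinases phosphorylate, at 8.56 FPKM in senescent whole cells and 3.55 FPKM in young whole cells, a ratio of 1.07; over all its Ensembl transcripts the order turned, at 8.56 FPKM in senescent whole cells and 37.0 FPKM in young whole cells. EIF2AK4, the kinase GCN2 that senses uncharged transfer RNA, stood at 17.5 FPKM in senescent whole cells and 11.5 FPKM in young whole cells, a ratio of 0.57.

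**Figure D5:**
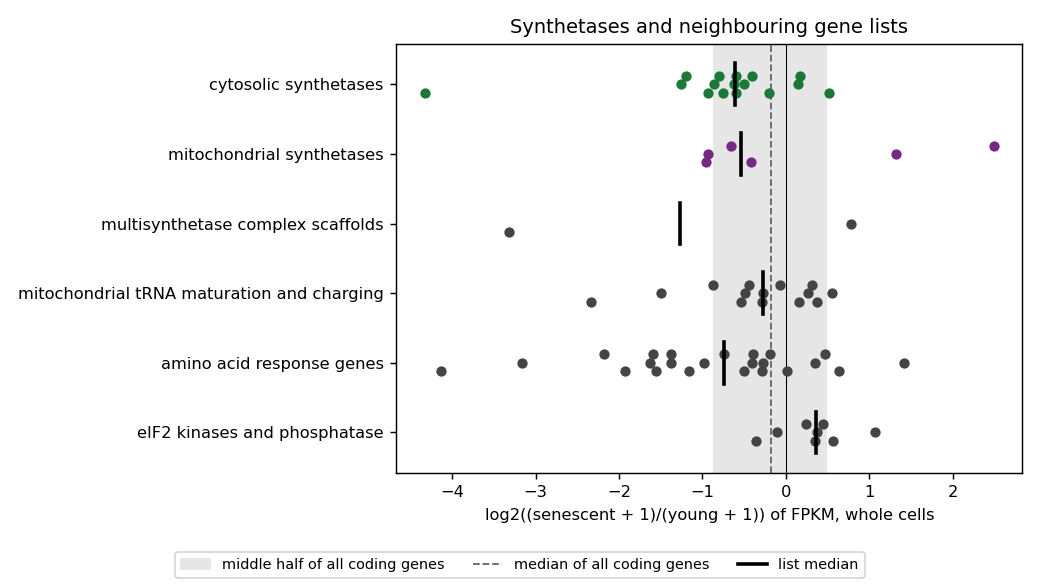
Log2((senescent + 1)/(young + 1)) of FPKM in whole cells for the synthetases and the lists around them, 1 point per gene compared, with a black bar at each list's median, the grey band at the quartiles of all nuclear coding genes compared and the dashed line at their median of −0.17. The list medians run from −1.27 for the 2 scaffold genes compared to 0.37 for the eIF2 genes, with the cytosolic synthetases at −0.61 and the amino acid response genes at −0.74.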

How the data were processed

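The deposited tables give FPKM per transcript and library, per the file headers, with no counts, coordinates or intervals. Cuffdiff, Cufflinks 2.2.1, TopHat2 2.0.14 and build hg19 appear in the submitters' processing notes; their roles, the annotation release and the strand setting are not stated there, so a gene and an overlapping antisense gene cannot be told apart. Of 393483 transcripts, 185591 carried an Ensembl identifier, and 93.0% of these matched GENCODE release 29, which gave symbols, types and lengths. Identifiers were taken from any library that gives them. FPKM of coding transcripts were summed per gene. Every other Ensembl class, including nonsense-mediated decay, was called noncoding. Ratios used a pseudocount of 1 FPKM, a minimum mean of 1 FPKM and a threshold of 1 on the log2 scale. A run on simulated data with large planted changes and little noise checked the calculation alone. It does not show how well these libraries measure a change. Python 3.11.15, pandas 2.3.3 and numpy 2.4.6 were used. All members may be named; of each neighbouring list, up to 4 genes with the largest ratio. Members and lists were chosen with earlier results of these data known. With 1 library per group and no counts, no p-value, standard error or counting interval is given.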

Additional observations from a re-analysis of the deposited data

Results flagged for a closer look

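Among genes above 0 in all 4 libraries, the fraction ratio of 3 cytosolic genes pointed in opposite directions in the 2 states, with at least 1 ratio past the threshold. With 1 library per group the differences were not tested, and the share of all genes that turn was not counted. RARS1, LARS1 and KARS1, listed at 0 in senescent mitoplasts, turned as well. Their ratios were −3.44, −2.92 and −4.0 in senescent cells and 0.67, 0.04 and 0.60 in young cells. The log2 ratio of mitoplasts over whole cells of NARS1 was −3.12 in senescent cells and 0.55 in young cells, a difference of −3.67. That of SARS1 was −1.27 in senescent cells and 0.39 in young cells, a difference of −1.66. That of VARS1 was −1.28 in senescent cells and 0.94 in young cells, a difference of −2.22. Seen the other way, the log2 ratio of senescent over young of VARS1 was −2.07 in mitoplasts and 0.14 in whole cells, again a difference of −2.22 because the same 4 values enter. FARS2 differed with the opposite sign, at 1.69 in mitoplasts and −0.66 in whole cells, a difference of 2.35 that was not tested either. These directions depended on the transcripts summed. Over long coding transcripts the fraction ratio of NARS1 was 1.60 in senescent cells and −3.45 in young cells. With assembled transcripts that of VARS1 was −2.41 in senescent cells and −0.86 in young cells, and over all Ensembl transcripts 2.39 in senescent cells and 0.94 in young cells, the same direction in both states each time. That of SARS1 was −0.0046 in young cells with assembled transcripts. Over long transcripts the senescent over young ratio of FARS2 was −0.032 in mitoplasts. The all-gene median of the fraction ratio was −1.99 in senescent cells and −0.39 in young cells, and the part of that shift in these differences was not tested.

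Assembled transcripts, which the comparisons of coding transcripts leave out, exceeded the coding level at 5 loci in whole cells, 4 of them at 5 FPKM or more. The remaining locus, TARS2, held 2.08 FPKM of them in senescent whole cells, where its coding transcripts were listed at 0. The RARS1 locus held 11.5 FPKM of them in senescent whole cells, against 9.88 FPKM of coding transcripts. The VARS1 locus held 5.74 FPKM in senescent whole cells and 23.5 FPKM in young whole cells. The WARS1 locus held 21.5 FPKM in senescent whole cells and 34.1 FPKM in young whole cells. The CARS2 locus held 11.2 FPKM in senescent whole cells and 33.4 FPKM in young whole cells. These transcripts carry no name, so whether they encode the enzymes is not known.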

How the results depend on the processing

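No paired analysis was possible because the labels give no replicate numbers and 1 library per group. The medians for senescent over young whole cells moved by less than 1.5 times, between −0.71 and −0.35 for cytosolic genes and between −0.66 and 0 for mitochondrial genes, and so did the cytosolic median for young mitoplasts over whole cells, whose sign did not hold: −0.16 became 0.21 under equal sums, 0.23 relative to the median gene and 0.14 among genes above 0 in all libraries. The other medians did not hold in size. Of 744 single ratios recomputed, 31 past the threshold changed sign. Of the rest, 569 moved by less than 1.5 times and 144 by more. Within these 2 groups, 27 ratios that were under the threshold as reported changed sign too, so a small move does not mean that the direction held. The cause was not tested.

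Members past the threshold were 5 of 24 in senescent over young whole cells, against 36% of all genes. Under equal sums they were 3 of 24, against 33.4% of all genes. They were 1 of 9 among genes above 0 in all 4 libraries, against 28.8%, and 2 of 24 at a threshold of 2, against 14.1%. In senescent over young mitoplasts they were 21 of 21, against 79.2% of all genes, and 9 of 9 among genes above 0 in all libraries, against 61.7%. In young mitoplasts over whole cells they were 10 of 24, against 52.6% of all genes. Among genes above 0 in all libraries they were 2 of 9, against 42.3%. At a threshold of 2 they were 3 of 24, against 27.2% of all genes. In senescent mitoplasts over whole cells they were 23 of 24, against 82.6% of all genes. Relative to the median gene they were 12 of 24, against 56.4% of all genes. At a minimum of 5 FPKM they were 13 of 14, against 80.2%. They were 8 of 9 among genes above 0 in all libraries, against 67.5%, and 15 of 24 at a threshold of 2, against 58.1%.

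The cytosolic median for senescent over young mitoplasts, −2.98, was −5.08 with a pseudocount of 0.1 FPKM, −1.86 over all Ensembl transcripts, −2.34 with assembled transcripts, −1.21 relative to the median gene and −1.97 among genes above 0 in all libraries. The mitochondrial one, 1.69 from 3 genes, was −0.36 over all Ensembl transcripts, 0.94 over long coding transcripts, 0.27 with assembled transcripts, 3.46 relative to the median gene, 0 with no minimum and −0.27 with unmatched transcripts, an alternative chosen after seeing the data. For young mitoplasts over whole cells the mitochondrial median, −1.87, was −2.60 with the smaller pseudocount, −1.06 over all Ensembl transcripts, −0.075 with no minimum, −2.91 at 5 FPKM and −3.95 among genes above 0 in all libraries. For senescent mitoplasts over whole cells the cytosolic median, −2.27, was −3.58 with the smaller pseudocount, −1.27 over all Ensembl transcripts, −0.29 relative to the median gene and −1.31 among genes above 0 in all libraries; the mitochondrial one, −1.80, was −4.69, −2.76 over long transcripts, 0.19 relative to the median gene, −0.32 with no minimum and −2.90 at 5 FPKM.

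Single ratios past the threshold changed sign as follows. Over all Ensembl transcripts, senescent over young mitoplasts gave 0.91 for EPRS1, 1.60 for VARS1 and 0.44 for YARS1, senescent mitoplasts over whole cells gave 2.39 for VARS1, 0.94 for YARS1 and 4.03 for CARS2, and young mitoplasts over whole cells gave −0.85 for QARS1. Over long transcripts, senescent over young mitoplasts gave −1.65 for IARS1, 1.60 for NARS1 and −0.032 for FARS2, and senescent mitoplasts over whole cells gave −1.37 for IARS1 and 1.60 for NARS1. With assembled transcripts, CARS2 had −1.03 in senescent over young whole cells, NARS2 0.27 in senescent over young mitoplasts and 0.76 in senescent mitoplasts over whole cells, and in young mitoplasts over whole cells WARS1 had −0.22 and RARS2 0.13. With unmatched transcripts FARSB had 0.96 in young mitoplasts over whole cells. Under equal sums, senescent over young mitoplasts gave 0.23 for HARS1 and 0.32 for MARS1, and senescent mitoplasts over whole cells gave 0.36 for MARS1, 0.39 for SARS1 and 0.055 for FARS2. Relative to the median gene these were 0.54, 0.46, 0.64, 0.72 and 0.39, with VARS1 at 0.71, AARS2 at 0.19 and NARS2 at 0.39 in senescent mitoplasts over whole cells. Among ratios under the threshold, assembled transcripts gave 0.24 for GARS1, 0.18 for EPRS1, −0.24 for IARS1, −0.072 for FARSB and −1.40 for VARS1 in senescent over young whole cells. The read depth is unknown, which limits every low value.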
